A study of Mus musculus with 4 samples.

Results

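Transcripts of 10 genes of the neuronal cytoskeleton were followed in sorted cochlear cells with and without gentamicin: Mapt, Map1a, Map1b, Map2, Nefl, Nefm, Stmn2, Tubb3, Gap43 and Dcx. They were taken by symbol from the 23420 genes of the deposited tables, and all 10 were found. Mapt was chosen by its fall in gentamicin-treated hair cells in these same replicates, and the other members as genes of the same kind, so the response of the members in hair cells is given as a description. Counts of members past a threshold in that comparison are part of the description and not a test.

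The cells came from cochleae of postnatal day 1 CD1 mice carrying an Atoh1-GFP transgene, in which an enhancer of the hair cell transcription factor Atoh1 drives green fluorescent protein. The organs were cultured overnight, then kept for 3 h with 0.5 mM gentamicin, an aminoglycoside antibiotic that kills hair cells, or without it, and GFP positive hair cells (HC) and GFP negative non-hair cells (NHC) were sorted. This gave 4 groups of 3 replicates: control HC, gentamicin HC, control NHC and gentamicin NHC, all carrying the transgene. The GFP negative fraction held all other dissociated cells of the organ, such as supporting cells, surrounding tissue and any neurons that remained attached, and cells with low GFP were left out of both fractions. The replicates are called biological replicates in the methods, but the labels do not say how animals were divided among them, so p-values measure the spread between these replicates.

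A microtubule is a polymer of alpha and beta tubulin, and neurons add proteins that stabilise, space or shorten it. Mapt encodes tau, a microtubule-associated protein best known from axons; Map1a, Map1b and Map2 encode larger relatives in function, of which MAP2 is typical of dendrites and MAP1B of growing axons. Nefl and Nefm encode the light and medium neurofilament proteins, the intermediate filaments that set axon calibre. Tubb3 encodes the neuronal class III beta tubulin, widely used to stain spiral ganglion neurons and their fibres. Stmn2 encodes a stathmin that destabilises microtubules in growth cones, Gap43 a membrane protein of growth cones, and Dcx the microtubule-binding protein doublecortin of young neurons. On GRCm38 (GENCODE), Mapt lies at chr11:104231390-104332090, Map1a at chr2:121289600-121310832, Map2 at chr1:66175273-66442583 and Map1b at chr13:99421446-99516540. Nefl lies at chr14:68083863-68089095 and Nefm beside it at chr14:68082590-68124846. Tubb3 lies at chr8:123411424-123422015, Stmn2 at chr3:8509360-8561606, Gap43 at chr16:42248442-42340651 and Dcx at chrX:143855842-143933311. Hair cells have no axon of their own and are contacted at their base by the peripheral fibres of spiral ganglion neurons.

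Values are normalized read numbers, the deposited scores to which 1 had been added, so that 1 means no reads. They are not divided by gene length, and genes are compared with each other only where a value per kilobase is given. Recovered reads numbered 22399270–28150110 per replicate, and each member had at least 50 reads in every replicate, the lowest being Gap43 in gentamicin HC. All 11 hair cell markers were higher in HC, where their summed level was 13421–13891 in the controls against 297.81–306.49 in control NHC. Transcripts typical of other cells were also read in the GFP positive fraction, where the 5 mesenchyme markers had a median level in control HC of 4.29% of that in control NHC, the 5 endothelium markers 9.20%, the 5 macrophage markers 5.29%, and the 9 supporting cell markers 137%, with 1 of the 9 under 100%. In sorted bulk samples a smaller number of cells of one type and less RNA per cell cannot be told apart.

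RefSeq start-site windows used here covered 5 of the 10 members, Map2, Map1a, Tubb3, Map1b and Dcx. The following stretches of 120 bases, on GRCm38.p6 and read in the direction of the gene, lie upstream of both the RefSeq and the GENCODE start. They are shown because Map1a, Tubb3 and Dcx were higher in NHC and Map2 in HC, and because they differ in base composition. Capitals mark TATAA or CCAAT on either strand, and the motifs overlap in the Dcx stretch only where TATAA reads on both strands.
Map1a, chr2:121289480-121289599, plus strand: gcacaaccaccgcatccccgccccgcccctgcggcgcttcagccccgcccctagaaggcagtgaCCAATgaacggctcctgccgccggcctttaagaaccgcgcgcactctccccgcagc
Tubb3, chr8:123411304-123411423, plus strand: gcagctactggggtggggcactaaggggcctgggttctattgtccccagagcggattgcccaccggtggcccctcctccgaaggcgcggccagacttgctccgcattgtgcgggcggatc
Dcx, chrX:143933312-143933431, minus strand: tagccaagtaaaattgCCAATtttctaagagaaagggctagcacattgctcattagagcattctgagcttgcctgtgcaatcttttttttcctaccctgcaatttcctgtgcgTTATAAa
Map2, chr1:66175153-66175272, plus strand: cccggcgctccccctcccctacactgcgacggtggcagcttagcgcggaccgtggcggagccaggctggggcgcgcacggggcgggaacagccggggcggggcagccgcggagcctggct
The Map2 stretch had 79.2% G and C and the Dcx stretch 39.2%. In the full windows of 250 bases before to 50 bases after each start, TATAA was found for Tubb3, Map1b and Dcx. Its most upstream match began at position -31 from the start in Tubb3 and -99 in Map1b, and in Dcx, which had 2 windows with different starts, at -99 in one and -194 in the other. CCAAT was found for Map1a, Tubb3 and Dcx. Of the 32851 RefSeq windows of the same length, 24.9% held TATAA and 37.4% held CCAAT on either strand. The AP-1 motif TGANTCA (7.81% of windows) and the CRE motif TGACGTCA (1.79%) were not found in the 6 windows of these 5 genes. A match is a description of letters and not a site.

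Where were the transcripts in untreated organs? The members fell into 2 patterns. Mapt, Map1a, Stmn2, Tubb3, Gap43 and Dcx were higher in control NHC than in control HC by 3.74-fold to 6.80-fold (ratio of means), and Map2 was 2.03-fold higher in HC. Map1b, Nefl and Nefm did not pass the test. The test was limma on log2 values of all 12 replicates, called at a Benjamini-Hochberg adjusted p under 0.05. Among the 16077 genes tested, 74.1% were called, 42.2% higher in NHC and 31.9% higher in HC, so a call here is common. The control HC replicates are also those of the contrast for which Mapt was chosen.

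**Figure D1:**
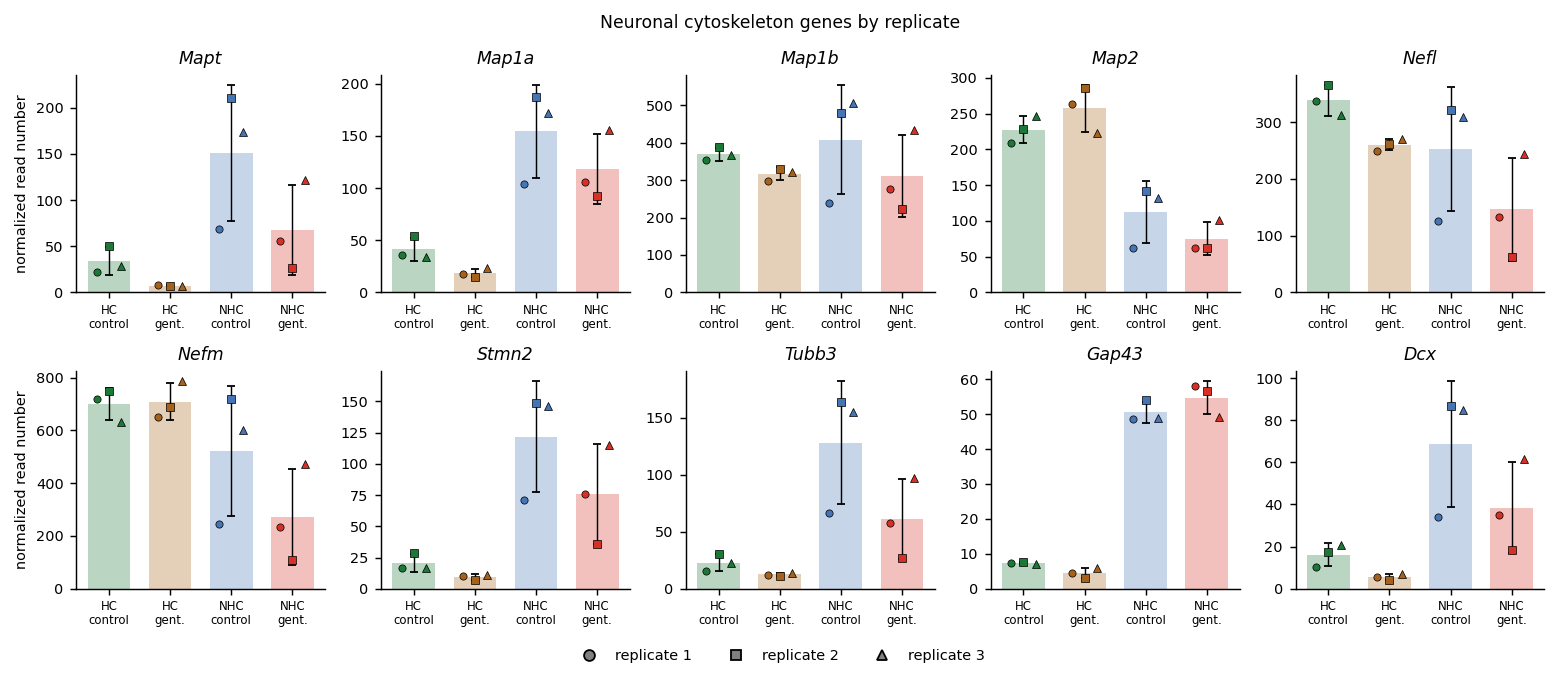
Normalized read number (vertical axis, linear, from 0) of each member in the 4 groups; bars are means, whiskers SD over 3 replicates, and symbols are replicates. Mapt, Map1a, Stmn2, Tubb3, Gap43 and Dcx were lowest in gentamicin HC, Map2 was highest in HC, and in NHC replicate 1 of the controls lay below the other two for all 10 members.

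Among the microtubule-associated genes, Mapt stood at 22.1, 50.6 and 28.3 in control HC and at 68.3, 210 and 174 in control NHC. Every NHC control was above every HC control, with a log2 difference of 2.10 (SE 0.54, limma adjusted p = 0.00390). Map1a read 36.0, 53.8 and 34.1 in control HC against 104, 187 and 172 in control NHC, a log2 difference of 1.89 (SE 0.27, limma adjusted p = 5.42e-05). Map2 went the other way, with 209, 228 and 246 in control HC and 62.6, 142 and 132 in control NHC, again without overlap (log2 difference -1.11, SE 0.28, limma adjusted p = 0.00365). Map1b overlapped, with 353, 389 and 366 in control HC and 240, 480 and 506 in control NHC. Its log2 difference was 0.07 (95% interval -0.53 to 0.67, limma adjusted p = 0.827), and it turned to -0.05 under TMM scaling of the replicates, which moved the median of all genes in this comparison from 0.12 to 0.01.

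The neurofilament genes did not separate the populations. Nefm read 718, 748 and 632 in control HC and 244, 718 and 601 in control NHC. Nefl read 337, 365 and 312 in control HC and 126, 322 and 308 in control NHC. In both genes 2 of the NHC controls lay close to the HC range and the first replicate far below it. The log2 differences were -0.56 for Nefm (95% interval -1.60 to 0.47, limma adjusted p = 0.296) and -0.54 for Nefl (-1.49 to 0.41, limma adjusted p = 0.277). The heavy neurofilament gene Nefh, from the wider list of intermediate filament genes, was in contrast higher in NHC, at 10.3 ± 5.37 in control HC and 75.3 ± 31.9 in control NHC (mean ± SD, n = 3; limma adjusted p = 2.21e-04). In GENCODE a transcript of Nefm runs across Nefl on the other strand with 1108 shared exonic bases, and whether the counting used strand is not given in the sources used here, so reads in those bases cannot be told apart. The same holds for 272 bases that Map1a shares with Ppip5k1 and 124 that Map2 shares with Gm10558.

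Tubulin, stathmin and growth genes were all low in HC. Tubb3 read 15.9, 30.6 and 22.3 in control HC against 66.2, 163 and 154 in control NHC (log2 difference 2.42, SE 0.44, limma adjusted p = 4.00e-04). Stmn2 read 16.4, 28.8 and 16.8 against 70.7, 149 and 146 (2.53, SE 0.42, limma adjusted p = 1.77e-04). Both were thus above the HC range in every NHC control. Gap43 read 7.45, 7.76 and 7.08 in control HC and 48.7, 53.9 and 48.9 in control NHC, the tightest replicates among the members (2.76, SE 0.19, limma adjusted p = 1.11e-07). Dcx read 10.4, 17.5 and 20.8 against 34.3, 86.9 and 84.8 (2.02, SE 0.46, limma adjusted p = 0.00193). These 7 calls also passed in a fit with replicate numbers as a block, and each was called whichever of the 6 replicates was left out.

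Levels per kilobase of the longest protein-coding GENCODE transcript, with the added 1 taken off, put the neurofilaments first. In control HC Nefm stood at 189.8 ± 16.3 per kilobase, Nefl at 99.7 ± 7.95, Map2 at 36.2 ± 2.98 and Map1b at 31.2 ± 1.52 (mean ± SD, n = 3). The other members followed below 12, with Tubb3 at 11.8 ± 3.96, Stmn2 at 9.49 ± 3.40, Mapt at 6.22 ± 2.86, Gap43 at 4.53 ± 0.24, Map1a at 3.41 ± 0.92 and Dcx at 1.68 ± 0.59. In control NHC Nefm (141.3 ± 67.0) and Nefl (74.3 ± 32.4) were again first, followed by Tubb3 (68.0 ± 28.8) and Stmn2 (58.3 ± 21.4) per kilobase, and Map2 was eighth (17.8 ± 6.90). The order thus differed between populations mainly in Map2 and Map1b on one side and Tubb3, Stmn2 and Gap43 on the other. In control HC the replicates of neighbours in this order overlapped from Tubb3 down to Map1a, while Nefm, Nefl, Map2 and Map1b did not overlap with the next gene. In control NHC the replicates of all neighbours overlapped.

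Markers of spiral ganglion neurons split in the same comparison. Of 11 such genes, Elavl3, Elavl4, Ntrk3, Slc17a6 and Slc17a7 were called higher in control NHC and Rbfox3 higher in control HC, and 5 did not pass. None of the 11 was at 0. In the controls, the level in HC was 12.99% of that in NHC for Gap43, 16.3% for Stmn2, 17.3% for Tubb3, 21.8% for Mapt, 22.5% for Dcx and 26.3% for Map1a. The 5 neuron markers called higher in NHC stood at 17.8% to 24.7%. Of the same list, Cntn2 stood at 53.0%, Uchl1 at 60.4%, Syn1 at 74.2%, Thy1 at 107%, Sncg at 153% and Rbfox3 at 767%. The median of all 11 was 53.0%. For Map1b, Nefl, Nefm and Map2 the level in HC was 90.5%, 134%, 134% and 204% of that in NHC. The 8 Schwann cell and glia markers had a median of 32.3%, and 7 of them were under 100%. How far neurons or their fibres carried these transcripts into either fraction was not tested.

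**Figure D2:**
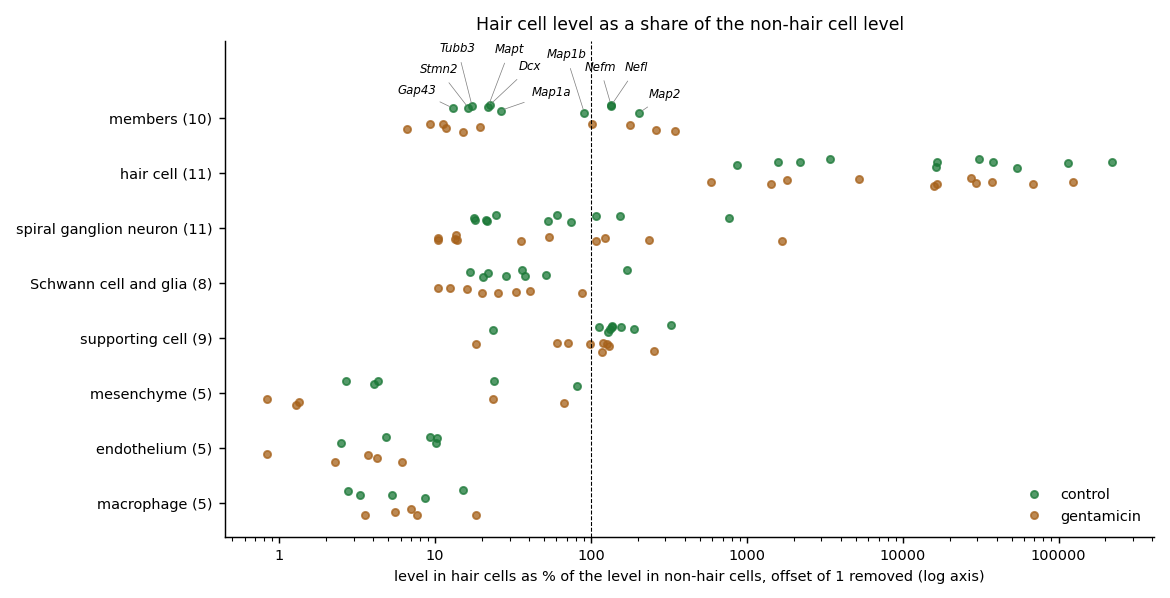
Level in HC as a percentage of the level in NHC (horizontal axis, log scale; the added 1 was taken off) for each member and each marker list, green in controls and brown after gentamicin, 1 point per gene. In the controls 6 members lie at 12.99% to 26.3%, beside 5 of the 11 spiral ganglion neuron markers, and Map1b, Nefl, Nefm and Map2 at 90.5% to 204%. The other spiral ganglion neuron markers lie at 53.0% to 767%.

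In gentamicin HC the members that were low in HC were lower still. All 3 treated replicates lay below all 3 controls for Mapt, Map1a, Map1b, Nefl, Stmn2, Tubb3, Gap43 and Dcx, and not for Map2 and Nefm. Among all genes tested, 33.1% had their treated replicates below the controls and 21.7% above them, which was the case for 0 of the 10. The criteria of the study, a fold change above 1.2 and p under 0.01 before adjustment, were met by 4 of the 10, Mapt, Map1a, Gap43 and Dcx, all lower, which describes the comparison that chose Mapt. Of all genes, 27.5% passed in either direction, 12.7% higher and 14.8% lower. With an adjusted p under 0.05 in place of these criteria, 4 of the 10 passed, beside 33.2% of all genes. Since this contrast chose Mapt, nothing is read from these counts. The median log2 difference of the 10 was -0.80, beside -0.09 for all genes.

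Mapt read 7.97, 6.57 and 7.02 in gentamicin HC, where the controls read 22.1, 50.6 and 28.3. Its mean was 4.68-fold lower, and the log2 difference was -2.14 (SE 0.54). The treated replicates lay close together, while the controls spanned 2.29-fold, with replicate 2 highest. Dcx read 5.36, 3.99 and 6.88 after gentamicin against 10.4, 17.5 and 20.8 before (log2 difference -1.56, SE 0.46). Map1a read 17.4, 15.2 and 23.2 against 36.0, 53.8 and 34.1 (-1.14, SE 0.27).

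Stmn2 read 10.3, 6.94 and 11.0 in gentamicin HC against 16.4, 28.8 and 16.8 in the controls (log2 difference -1.11, SE 0.42). Tubb3 read 12.2, 11.1 and 14.2 against 15.9, 30.6 and 22.3 (-0.83, SE 0.44). Gap43, with the smallest spread of the controls, read 4.55, 3.09 and 5.92 against 7.45, 7.76 and 7.08 (-0.77, SE 0.19). In Tubb3 and Gap43 the highest treated and the lowest control replicate lay near each other. Replicate 2 was the highest HC control for 8 of the 10 members, against 36.9% of all genes. In summed level it was also the highest HC control for mesenchyme markers (685.9 against 459.11 and 482). Endothelium markers did likewise (30.06 against 20.677 and 17.903). The same held for neuron (439.76), glia (387.61) and macrophage sums (6.5845), while its supporting cell (1641.9) and hair cell sums (13421) were the lowest. The part of these transcripts in the members' values was not tested. Without control HC replicate 2 the criteria were passed by 2 members in place of 4, Map1a and Gap43, beside 20.5% of all genes. Mapt was then at -1.80 and did not pass.

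The 4 members with the most reads differed less. Nefm read 653, 689 and 786 in gentamicin HC and 718, 748 and 632 in the controls (log2 difference 0.02, SE 0.47). Map2 read 264, 286 and 222 against 209, 228 and 246 (0.17, SE 0.28). These 2 genes thus overlapped. Nefl read 249, 262 and 270 against 337, 365 and 312 (-0.37, SE 0.43), and Map1b 299, 331 and 322 against 353, 389 and 366 (-0.22, SE 0.27), both without overlap. With HC alone in the fit, where the wider spread of the NHC replicates does not enter, the criteria were met by 6 in place of 4, with Nefl, Stmn2 and Tubb3 added and Gap43 no longer among them, again as a description. Of all genes, 31.5% passed in that fit.

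Summed markers of most other cell types were also lower in gentamicin HC. The neuron and supporting cell sums held genes with a higher mean in control HC than in control NHC, such as Rbfox3, Sncg and Jag1. Only 8 of the 11 neuron markers and 1 of the 9 supporting cell markers were under 100% of the NHC level. A fall of these sums is thus not shown to be a fall of transcripts from other cells. All 11 spiral ganglion neuron markers were below 0 on the log2 scale, with a median of -1.01, and their summed level went from 395.9–439.76 in the controls to 295.94–344.87 after gentamicin. Only Ntrk3, the receptor for neurotrophin-3, passed the criteria among the 11 (log2 difference -1.09, limma adjusted p = 0.00583). The Schwann cell and glia sum went from 316.04–387.61 to 177.58–259.6 with 3 of 8 genes called lower. The supporting cell sum went from 1641.9–2006 to 780.34–1422.7 (2 of 9 called lower), the mesenchyme sum from 459.11–685.9 to 282.2–375.9 (2 of 5) and the endothelium sum from 17.903–30.06 to 11.184–16.047 (1 of 5). The hair cell sum was also lower, at 11376–12582 after gentamicin and 13421–13891 in the controls, and the macrophage sum overlapped (6.0724–7.4663 and 5.8299–6.5845). None of 5 macrophage and none of 11 hair cell markers were called in either direction (limma). At an unadjusted p under 0.05 these counts were 0 and 1, with no share of all genes at that threshold to set beside them. Treated and control HC replicates did not overlap for Atoh1, Gfi1 and Espn, which were higher, and Myo7a, Otof, Cdh23 and Lhfpl5, which were lower. Of all genes, 21.7% lay above the controls in this way and 33.1% below. The fit shared 1 estimate of the spread with NHC, so no call here does not mean no change in HC. The part of transcripts of other cells in the members' values was not tested.

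A ratio within each library was taken after the values were seen, between each member and the mean of Elavl3 and Elavl4, which encode neuronal RNA-binding proteins. The Mapt ratio was 2.53, 2.20 and 2.17 in control HC and 1.49, 1.26 and 1.23 in gentamicin HC. In NHC it was 1.82, 2.08 and 2.02 in the controls and 1.74, 2.25 and 2.02 after gentamicin. The Mapt ratio was therefore lower in gentamicin HC than in each of the other 9 replicates. Mapt was chosen for its fall in these HC replicates, so its ratios there are a description and not a test. The Tubb3 ratio went the other way in HC, from 1.32–1.79 to 2.29–2.69, and the ratios of Stmn2 (1.23–1.85 and 1.34–2.04) and Dcx (means of 1.14 and 0.94) overlapped between control and gentamicin HC. For Nefm the ratio was 56.4 on average in control HC, at least 33.2, and 6.90 on average in control NHC, at most 7.11, and every HC control had a higher ratio than every NHC control. These ratios depended on the markers in the denominator. With each of the 11 neuron markers in turn, the Mapt ratio was lower in every gentamicin HC replicate than in every HC control for 10 of the 11 and overlapped for 1. For Tubb3 the treated ratios were all higher for 4 markers, all lower for 1 and overlapped for 6, and for Nefm they were all higher for 8 and overlapped for 3. The Nefm ratio was higher in every HC control than in every NHC control for 8 of the 11. This count was 10 for Map2, 9 for Nefl, 8 for Map1b, 1 each for Mapt and Map1a, and 0 for Stmn2, Tubb3, Gap43 and Dcx. All 11 ratios use the same libraries, and no share for other genes was taken. In HC Mapt fell by more (-2.14) than any of the 11 markers (lowest -1.51), so its lower ratios largely restate that fall. Elavl3 itself read 9.42, 21.4 and 12.9 in control HC and 5.03, 4.84 and 4.58 in gentamicin HC.

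**Figure D3:**
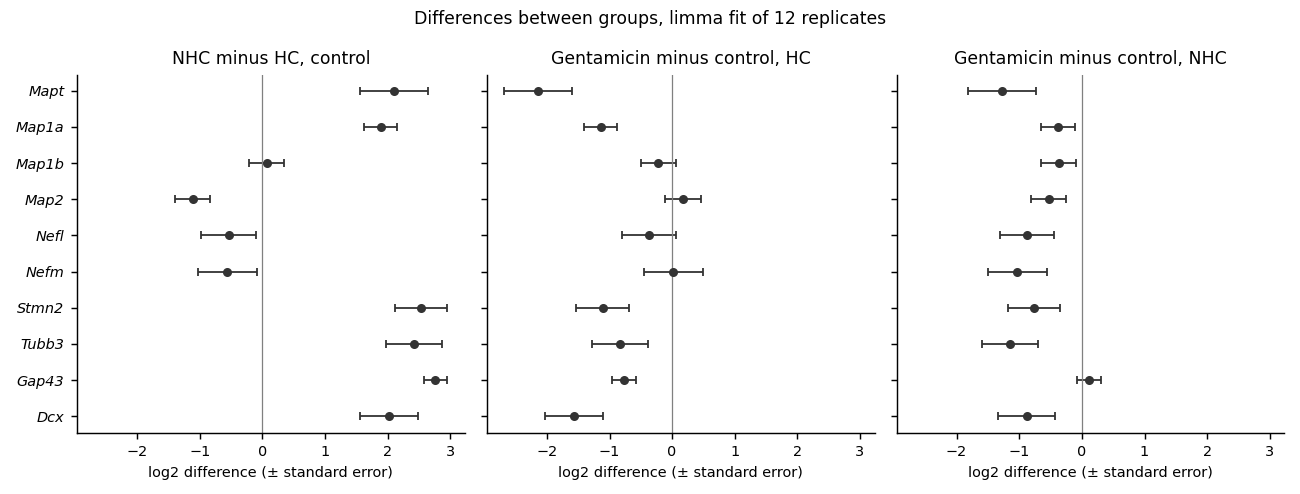
Log2 differences of the members in 3 contrasts of the limma fit, with standard errors (horizontal axis shared by the panels). In gentamicin HC Mapt and Dcx lie lowest at -2.14 and -1.56, while in NHC 9 of the 10 lie below 0 with wide errors and Gap43 lies at 0.11.

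In NHC no member passed the criteria after gentamicin (limma), against 5.44% of all genes (2.26% lower and 3.18% higher), and 0 of the 10 had an adjusted p under 0.05, against 0.342% of all genes. At an unadjusted p under 0.05 there were 3, Mapt, Nefm and Tubb3. No share of all genes is given at that threshold, so nothing is read from this count. Treated and control replicates overlapped for all 10, while 7.68% of all genes had every treated replicate below the controls and 10.1% above. Mapt read 56.0, 25.9 and 122 after gentamicin and 68.3, 210 and 174 in the controls (log2 difference -1.27, SE 0.54, limma adjusted p = 0.260). Tubb3 read 57.7, 27.2 and 97.1 against 66.2, 163 and 154 (-1.15, SE 0.44, limma adjusted p = 0.225). Nefm read 236, 110 and 471 against 244, 718 and 601 (-1.03, SE 0.47, limma adjusted p = 0.291). In each of them the lowest control lay below the highest treated replicate.

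Of the other members in NHC, Nefl read 133, 62.5 and 243 after gentamicin against 126, 322 and 308 (log2 difference -0.88, limma adjusted p = 0.329), and Dcx 35.1, 18.6 and 61.5 against 34.3, 86.9 and 84.8 (-0.88, limma adjusted p = 0.351). Stmn2 read 76.2, 35.8 and 115 against 70.7, 149 and 146 (-0.76, limma adjusted p = 0.375). Their intervals were wide and included 0. Map2, at 61.9, 62.4 and 101 against 62.6, 142 and 132, differed by -0.53 (limma adjusted p = 0.357). Map1a, at 106, 92.4 and 156 against 104, 187 and 172, differed by -0.38 (limma adjusted p = 0.502), and Map1b, at 277, 223 and 435 against 240, 480 and 506, by -0.37 (limma adjusted p = 0.519). Gap43 stood apart, at 58.1, 56.7 and 49.3 against 48.7, 53.9 and 48.9, with a log2 difference of 0.11 (95% interval -0.30 to 0.53, limma adjusted p = 0.801).

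The NHC replicates differed among themselves in the same way for most members. Control replicate 1 was the lowest control for all 10, against 38.1% of all genes. Gentamicin replicate 2 was the lowest of the 6 NHC replicates for 8 of the 10, against 27.4% of all genes, and gentamicin replicate 3 the highest treated one for 9. The 11 neuron markers did likewise: control replicate 1 was the lowest control for 11, and gentamicin replicate 2 the lowest of the 6 for 10. Their summed level was 398, 734 and 751 in control NHC and 409.67, 237 and 629 in gentamicin NHC. Rbfox3 was the only one of the 11 to pass the criteria in NHC, lower by 1.16 on the log2 scale after gentamicin (limma adjusted p = 0.137). Gap43 did not share the pattern after gentamicin, where its replicates spanned 1.18-fold against 4.70-fold for Mapt. The part of the neurons' share in the NHC values was not tested.

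These replicates decided the NHC counts. Without control NHC replicate 1, 6 members passed the criteria, all lower, against 8.5% of all genes. Mapt, Map1b, Map2, Nefl, Nefm and Tubb3 were those 6. Without gentamicin NHC replicate 3, Mapt, Nefl, Nefm and Tubb3 passed, against 9.77% of all genes. Leaving out any of the other 4 NHC replicates gave 0. Mapt ranged from -1.83 to -0.72 over these fits.

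**Figure D4:**
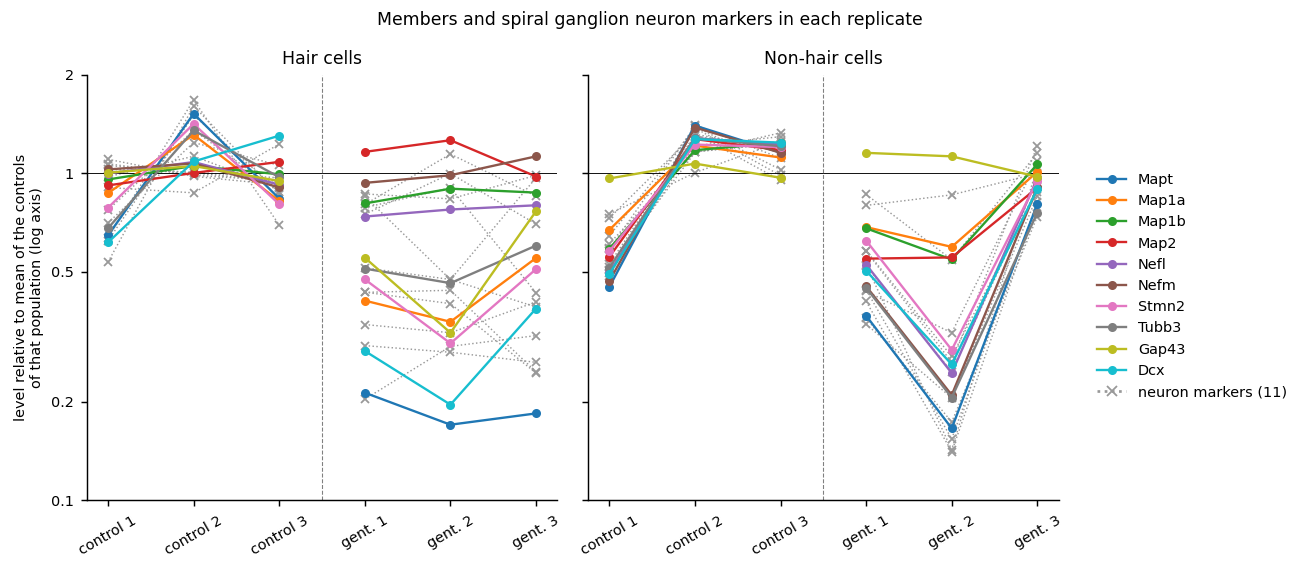
Level of each member (coloured lines) and of 11 spiral ganglion neuron markers (grey, dotted) in each replicate, as a ratio to the mean of the controls of the same population (vertical axis, log scale). In NHC most lines have the same shape, low in control 1 and lowest in gentamicin 2, with Gap43 apart; in HC Mapt and Dcx are the lowest members after gentamicin, with the markers Slc17a7 and Elavl3 about as low as Dcx, while Map2 and Nefm stay near 1.

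The difference between the HC and NHC responses used the contrast for which Mapt was chosen and is described without a test (of all genes, 13.4% passed an adjusted p of 0.05 here). It was -0.87 on the log2 scale for Mapt (SE 0.76), -0.76 for Map1a (SE 0.38), -0.88 for Gap43 (SE 0.27) and -0.68 for Dcx (SE 0.65), where a negative value means a stronger fall in HC. For Nefm it was 1.05 (SE 0.66) and for Map2 0.70 (SE 0.40). The standard errors of all but Gap43 were at least as large as 0.38, so most of these values are imprecise.

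Across the 12 replicates the genes whose log2 values were most like those of Mapt were Syn2, Atcay, N28178 and Elavl3, with Pearson r from 0.993 for Syn2 to 0.992 for Elavl3, among 12563 genes. For Dcx they were Plcb1, Islr2, Gnb1, Syt11 and Scrt2 (0.993 to 0.986). For Nefl they were Syp, which encodes the vesicle protein synaptophysin, Svop, Slc12a7, Rph3a and Unc13a (0.993 to 0.972), and for Gap43 Epb4.1l3, Cnn3, Pls3, Vat1 and Itgb5 (0.998 to 0.997). None of the genes named here was in more than 1 of these 4 sets. Among the members themselves, Mapt had r = 0.978 with Dcx, 0.965 with Tubb3 and 0.961 with Stmn2, Nefl had 0.974 with Nefm, and Mapt had 0.03 with Nefl. The points are libraries of 4 groups, and the differences between groups enter each r.

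Other genes of the neuronal cytoskeleton were taken as 6 lists of 86 genes, and all 86 were tested. They were not picked for how they moved, but earlier results of these data were known when the lists were made. Counts at an unadjusted p under 0.05 are given below without a share of all genes, and nothing is read from them. After gentamicin in HC 6 were called higher and 18 lower, beside 12.7% and 14.8% of all genes, with a median log2 difference of -0.29 against -0.09 for all genes. Markers of other cell types were lower in the same libraries, as given above, and their part in these counts was not tested. Scaling by total reads moved the balance of all genes from 2037 higher and 2381 lower to 2774 higher and 1591 lower.

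Of 23 microtubule-associated and microtubule-regulating genes, 6 fell and 1 rose in HC. Map6, which encodes a microtubule-stabilising protein, fell from 10.1 ± 5.00 to 2.81 ± 0.24 (mean ± SD, n = 3; log2 difference -1.73, limma adjusted p = 0.0105). Dpysl2, which encodes the tubulin-binding collapsin response mediator CRMP2, fell from 129.9 ± 6.09 to 66.7 ± 8.23 (-0.97, limma adjusted p = 1.97e-04), and Map4 from 98.2 ± 11.0 to 62.0 ± 7.74 (-0.67, limma adjusted p = 0.00235). Spast, the microtubule-severing enzyme spastin, rose from 101.4 ± 6.47 to 134.5 ± 1.57 (0.41, limma adjusted p = 4.75e-04). Of 12 other tubulin genes, 4 fell and none rose (1 was above 0 and 8 had an unadjusted p under 0.05). Tubb5 fell from 199.6 ± 32.1 to 99.8 ± 26.0 (-1.02, limma adjusted p = 0.00413), Tubb4a from 15.9 ± 2.50 to 7.90 ± 1.26 (-1.01, limma adjusted p = 5.66e-04), and Tubb4b from 341.8 ± 16.9 to 234.1 ± 38.4 (-0.56, limma adjusted p = 0.00250).

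Of 5 other intermediate filament genes, the vimentin gene Vim fell from 115.4 ± 19.3 to 64.6 ± 16.7 (mean ± SD, n = 3; log2 difference -0.85, limma adjusted p = 0.00646) and the nestin gene Nes from 17.5 ± 2.77 to 10.4 ± 2.34 (-0.76, limma adjusted p = 0.00623). Vim and Nes are typical of non-neuronal or progenitor cells. Nefh, Prph and Ina did not pass, with log2 differences of -0.83, -1.10 and -0.26. Of 15 growth cone and axon membrane genes 5 fell. Fscn1, the actin-bundling fascin, fell from 39.0 ± 13.2 to 14.3 ± 1.54 (-1.40, limma adjusted p = 4.13e-04), the ankyrin gene Ank2 from 23.3 ± 7.71 to 10.4 ± 2.38 (-1.14, limma adjusted p = 0.00299), and Basp1, a relative of Gap43 in function, from 31.7 ± 7.66 to 15.2 ± 3.00 (-1.05, limma adjusted p = 0.00142). These 3, with Vim, Nes, Tubb5 and Tubb4a, were each called at least 2.34 higher on the log2 scale in control NHC than in control HC. Of the other falling genes named so far, Map6 was also called higher in control NHC (2.28), and Tubb4b was called higher in control HC (-0.83). Map4 read 98.2 in control HC and 398.7 in control NHC, and Dpysl2 129.9 and 103.9, both without overlap.

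The kinase and phosphatase list behaved otherwise. Of 16 genes for enzymes known to act on tau, 5 rose and none fell in HC (7 were below 0), and 11 had an unadjusted p under 0.05. Ppp2r2a, a regulatory subunit of protein phosphatase 2A, rose from 101.3 ± 0.81 to 171.2 ± 15.8 (mean ± SD, n = 3; log2 difference 0.75, limma adjusted p = 4.23e-05). Dyrk1a rose from 105.3 ± 1.45 to 142.9 ± 7.61 (0.44, limma adjusted p = 3.06e-04) and Csnk1d, casein kinase 1 delta, from 232.8 ± 7.50 to 304.3 ± 18.1 (0.39, limma adjusted p = 0.00146). Of 15 axonal transport motor genes, 1 was called, the kinesin gene Kif3c, which fell from 132.0 ± 2.06 to 93.1 ± 13.2 (-0.51, limma adjusted p = 0.00841).

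**Figure D5:**
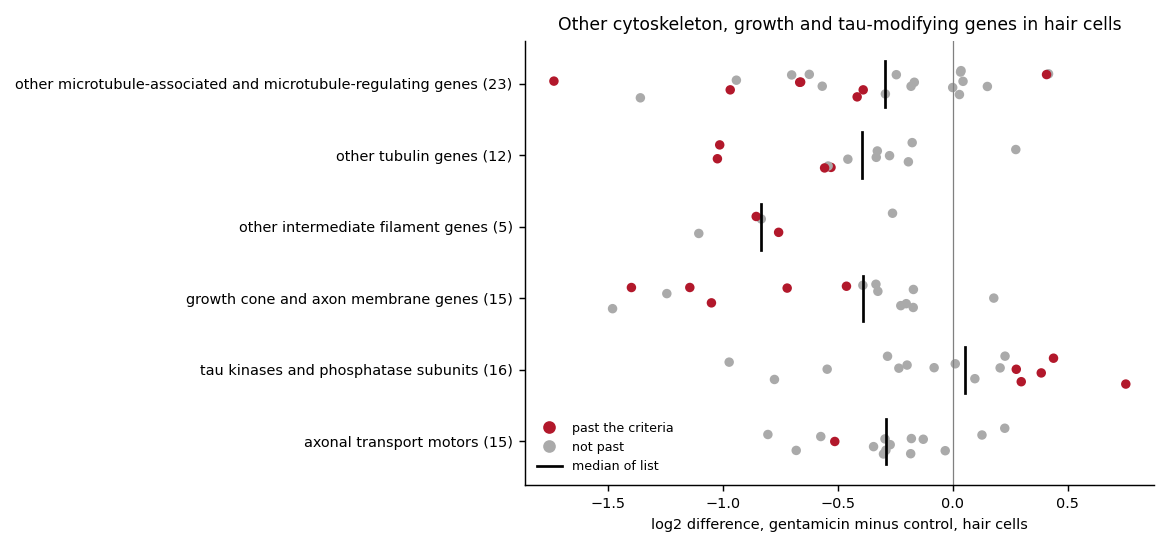
Log2 difference between gentamicin and control HC (horizontal axis) for the 86 genes of the 6 wider lists, 1 point per gene, red where the criteria were passed, with the list median as a black line. Calls lie below 0 in the tubulin, intermediate filament and growth cone lists, and above 0 in the kinase and phosphatase list.

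In NHC 2 of the 86 passed the criteria after gentamicin, both lower, beside 2.26% of all genes lower, and 20 had an unadjusted p under 0.05. Mapre3, a protein of growing microtubule ends, went from 46.0 ± 6.15 to 35.4 ± 2.89 (mean ± SD, n = 3; log2 difference -0.37, limma adjusted p = 0.110), and the kinesin gene Kif3a from 97.2 ± 7.68 to 76.9 ± 3.64 (-0.34, limma adjusted p = 0.0650). Neither had an adjusted p under 0.05. Without control NHC replicate 1 or without gentamicin NHC replicate 3 the count was 21.

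Between the control populations 35 of the 86 were higher in NHC and 32 higher in HC, beside 42.2% and 31.9% of all genes. Those higher in NHC included Vim (log2 difference 3.37), Fscn1 (3.31), Nes (3.17), Tubb6 (3.11), Basp1 (3.02), Stmn4 (2.62), Tubb5 (2.48) and Dclk1 (2.24), each with a limma adjusted p of at most 5.48e-04. Those higher in HC included the kinesin Kif21b, at 884.3 ± 45.2 in HC and 118.9 ± 49.0 in NHC (mean ± SD, n = 3), Map9, Dctn1, which encodes the largest dynactin subunit, Map7, Ank3, Nfasc and Nrcam. Their log2 differences were -2.98, -2.31, -2.30, -2.22, -2.13, -2.12 and -1.98, each with a limma adjusted p of at most 2.54e-05. Transport motor genes leaned to HC, with 9 of 15 called higher there and 2 in NHC. Intermediate filament genes leaned to NHC, with 4 of 5.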

How the data were processed

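Poly(A) RNA of 12 replicates was sequenced by the authors with single-end reads of 50 bp, trimmed at a quality of 25, aligned with TopHat 2 to mm10 in PartekFlow (submitters' notes and methods), and deposited as a normalized score per gene and replicate. RPKM is named in the methods, although no length division is visible in the deposited scores. With the added 1 taken off and each replicate's step divided out, 76.68–78.42% of values up to 50 reads were whole within 0.05 reads. The scaling factor is not given in the sources used here, and 2954 genes had no reads.

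For the 16077 genes with at least 100 recovered reads, limma 3.58.1 (R 4.3.3) was run on log2 scores, all 4 groups in a single model with a variance trend. Gentamicin contrasts were called by the criteria of the study (fold change above 1.2, p under 0.01 before adjustment), and the control populations at an adjusted p under 0.05. Data were simulated for the HC contrast with independent normal noise of the same spread in all 4 groups and a fixed change in genes that were not low. There, 97% of 200 changed genes and 0.869% of the other genes among 16077 were called. The members' spread differed between HC and NHC, so this is not a rate for them. Same-numbered control HC and control NHC replicates had r = 0.216, 0.316 and 0.200 across genes, after group means were taken off. Pairs of different number had r from -0.270 to -0.055, so each control replicate matched its own number best. For gentamicin HC and gentamicin NHC the same-numbered values were 0.377, -0.039 and -0.018. Whether the numbers pair the replicates is not given in the labels. The block changed no call among the members.

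Members and lists were chosen with earlier results of these data known. All members are named, and of each wider list and contrast up to 3 called genes per direction with the largest change, without overlap of replicates and with a mean score in the higher group of 5 or more. Up to 5 genes most like a member were ranked by Pearson correlation. A marker gene and a correlated gene are not reported here. Positions and transcript lengths came from GENCODE M21 and start-site sequence from RefSeq. Pandas 2.3.3, numpy 2.4.6 and matplotlib 3.10.9 in Python 3.11.15 were used. Alternatives were TMM and total-read scaling, an offset of 0.1, other read minimums, voom weights, the block, the 2 groups alone, each replicate left out, and other thresholds.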

Additional observations from a re-analysis of the deposited data

Results flagged for a closer look

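The responses of the populations differed for 16 of the 86 genes of the wider lists, beside 13.4% of all genes. The test was an interaction term (limma, called at a Benjamini-Hochberg adjusted p under 0.05). It was positive for 7 and negative for 9, and 12 of the 16 are named here. Values are the HC response minus the NHC response on the log2 scale. The difference was positive for Ppp2r2a at 0.77 (limma adjusted p = 0.00127), Spast at 0.41 (0.00978), Dyrk1a at 0.37 (0.0142), Csnk1d at 0.34 (0.0339), and for Kif3a at 0.56 (0.00568). Ppp2r2a read 173, 186 and 154 in gentamicin HC against 100, 102 and 101 in control HC, and 99.5, 99.4 and 96.5 against 100, 101 and 97.6 in NHC. The difference was negative for Fscn1 at -1.35 (0.0103), Ank2 at -1.09 (0.0432), Basp1 at -1.08 (0.0191), Dpysl2 at -0.84 (0.00941), Nes at -0.81 (0.0464), Tubb4a at -0.79 (0.0307) and Tubb4b at -0.64 (0.0185). Dpysl2 read 66.9, 58.4 and 74.9 in gentamicin HC against 137, 126 and 127 in control HC. Marker sums of neurons, glia, supporting cells, mesenchyme and endothelium were lower in the same gentamicin HC libraries, and their part in these differences was not tested.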

How the results depend on the processing

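Among the members, 4 passed the criteria in HC, beside 27.5% of all genes. This became 2 with voom weights (25.6% of all genes), 6 with HC alone in the fit (31.5%), and 2–4 when single replicates were left out. Mapt was not among the 2 in the voom fit. In NHC the count was 0–6 over the left-out replicates and 0 under every other alternative run. Between the control populations it was 7 under every alternative. For the wider lists in HC the 24 calls became 43 with the 2 groups alone, 13 at a fold above 1.5, and 21–31 with single replicates left out. In NHC the 2 calls became 1 with the 2 groups alone, 0 at an adjusted p under 0.05, 0 at a fold above 1.5, and 1–21 with replicates left out. Between the control populations the 67 calls became 63–69. The cause was not tested. Over all genes the NHC count of 875 was 383 with the 2 groups alone, 55 at an adjusted p under 0.05, and 411, 458, 1366 and 1570 without control replicate 2, gentamicin replicate 2, control replicate 1 and gentamicin replicate 3. Map1b turned sign between the control populations, to -0.0537 with TMM, -0.0562 with voom weights, -0.0844 without control NHC replicate 2 and -0.1223 without replicate 3, in a range of -0.1223 to 0.4156 over the left-out replicates. Nefm in HC, at 0.0197, ranged from -0.0569 to 0.0774 over them. With the replicate block, 4, 0 and 7 members were called in HC, NHC and between the control populations, and 26, 2 and 67 genes of the wider lists. Whether control and gentamicin replicates share more than a number is not given in the labels, and these correlations cannot decide it. Same-numbered ones had r of 0.0369, 0.0523 and 0.0369 in HC and 0.208, -0.232 and 0.683 in NHC. Not every replicate correlated best with its own number. In 79 comparisons of counts the value stayed within 1.5 times the main count, and in 15 it did not. At 71 to 169 reads, Mapt and Dcx in gentamicin HC are the members whose precision depth limits most after Gap43.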
